A study of Mus musculus with 10 samples.

Results

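The co-receptors, adaptors and receptor-proximal kinases of the Toll-like receptors are described here by 10 genes, Cd14, Ly96, Myd88, Tirap, Ticam1, Ticam2, Irak1, Irak2, Irak3 and Irak4. They were taken by symbol from the 32074 genes of an RNA sequencing table of primary microglia (the macrophages that reside in the brain) from mouse cortex. All 10 were found. All 10 passed the filter used for testing, which kept genes whose mean across libraries reached 1 TPM (transcripts per 1000000, a length-corrected share of all transcripts in a library). The cells came from cortices of CD-1 pups of postnatal days 2 to 4, and every culture was kept for 24 h in medium with vesicle-depleted serum. The PBS group (4 libraries) received phosphate-buffered saline. The sham-sEV group (3 libraries) received 1 µg of small extracellular vesicles (sEVs) from the serum of sham-operated mice, and the SNI-sEV group (3 libraries) 1 µg from mice with spared nerve injury (SNI), a model of neuropathic pain. The labels call the libraries biological replicates but name neither separate cultures nor separate vesicle preparations, so p-values measure only the spread between these libraries.

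Toll-like receptors recognise microbial molecules and some products of damaged cells. Cd14 and the Ly96 protein (MD-2) present lipopolysaccharide to Tlr4, and adaptors with a TIR domain carry the signal inward. Myd88, recruited to Tlr4 and Tlr2 through the sorting adaptor Tirap, assembles the kinase Irak4 with Irak1 and Irak2 and leads to NF-kappaB, while Ticam1 (TRIF), recruited to Tlr4 through Ticam2 (TRAM), also leads to the interferon factors. Irak3 (IRAK-M) is an inhibitory member of the kinase family that is found mainly in monocytes and macrophages.

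All 10 microglia markers checked were measured, with Csf1r at 755 ± 103 TPM and P2ry12 at 5.85 ± 1.07 TPM in PBS (SD, n = 4). Their sum was 6211 to 6653 TPM in PBS, 8383 to 8737 TPM in sham sEV and 7679 to 8297 TPM in SNI sEV. In sham sEV against PBS 4 were higher and 5 lower. Among all tested genes 16.5% were called higher and 52.5% lower in that comparison, and all marker counts here stand beside those shares. Cx3cr1 fell from 345 ± 32.4 to 50.9 ± 4.99 TPM, while Aif1 rose from 201 ± 20.1 to 1206 ± 27.8 TPM and Fcrls from 18.8 ± 2.09 to 265 ± 20.6 TPM (limma adjusted p = 1.1e-10, 1.7e-10 and 8.9e-11). Astrocyte markers summed to 145 to 166 TPM in PBS, 89.7 to 102 TPM in sham sEV and 163 to 170 TPM in SNI sEV, and 7 of 8 were lower in sham sEV than in PBS. Oligodendrocyte-lineage markers summed to 595 to 682, 426 to 474 and 652 to 725 TPM, and 9 of 10 were lower in sham sEV. Of 7 neutrophil and monocyte markers in the table, S100a9, Ly6g, Ly6c2, Mpo and Elane averaged under 0.1 TPM over the libraries, and S100a8 alone passed the filter, at 8.41 TPM in PBS and 32.1 TPM in sham sEV. The part of these other cells in the values below was not tested, and in bulk RNA fewer cells of a type cannot be told apart from less RNA per cell. TPM keeps no read totals, so depth is unknown and counting intervals cannot be set.

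In the PBS cultures Cd14 was by far the most abundant of the 10 genes, at rank 27 of all genes, and Irak3 was the least abundant. The PBS means were 2600.3 TPM for Cd14, 85.6 for Myd88, 66.7 for Irak1, 57.5 for Irak2, 48.4 for Ly96, 35.0 for Ticam1, 21.2 for Ticam2, 19.1 for Irak4, 11.2 for Tirap and 9.86 for Irak3. The libraries of Irak1 and Irak2, Irak2 and Ly96, Ly96 and Ticam1, Ticam2 and Irak4, and Tirap and Irak3 overlapped, so the order within those pairs is not beyond their spread. The PBS libraries were not alike over the whole transcriptome: PBS replicate 1 held the lowest PBS value for 53.4% of all tested genes. Among the 10 genes it did so for 8. In the sham-sEV cultures Irak3 moved to the second place with 214 TPM, behind Cd14 and ahead of Myd88 and Irak2, whose libraries overlapped with each other. Irak1 and Ticam2, and Ticam2 and Ticam1, also overlapped there, and Irak4 took the last place with 13.2 TPM. In the SNI-sEV cultures the order was that of PBS except that Ly96 stood before Irak2 and Irak3 before Tirap. There the libraries of Irak1 and Ly96 and of Ly96 and Irak2 overlapped.

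**Figure D1:**
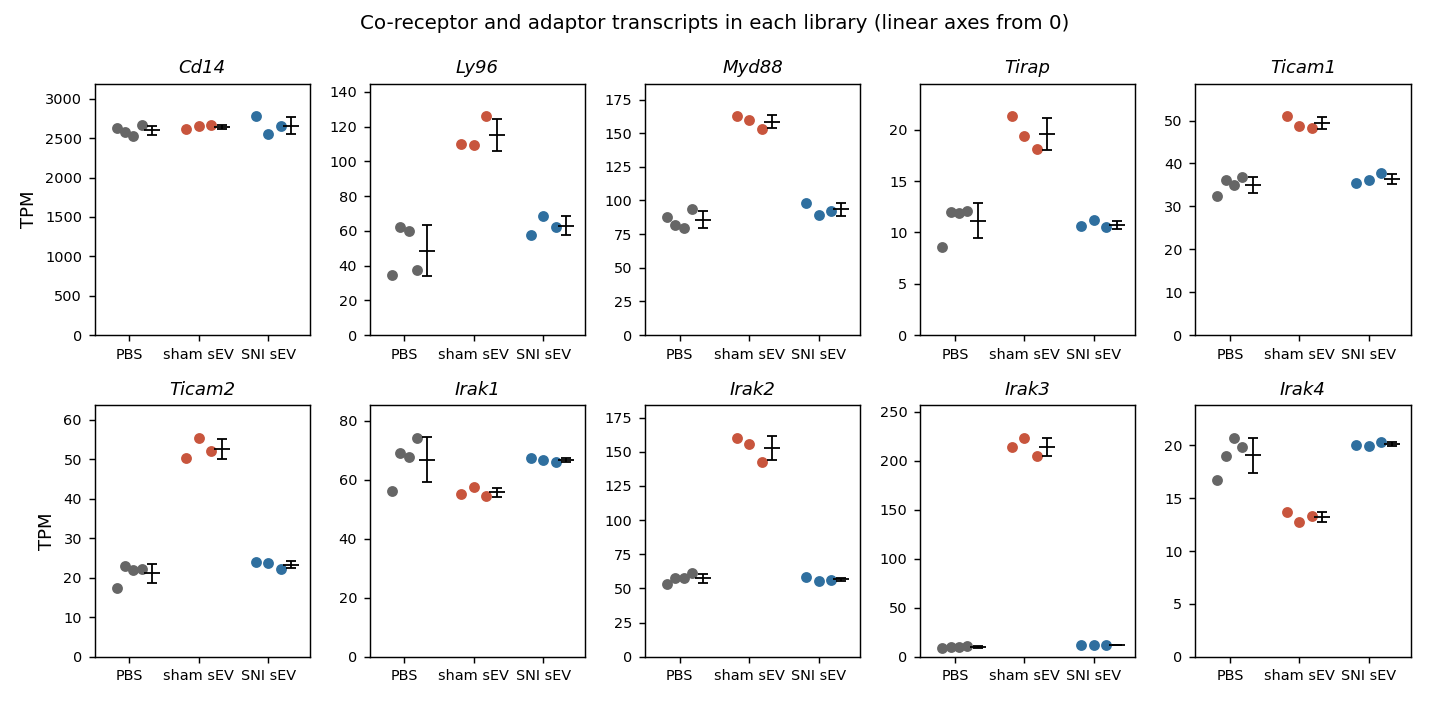
TPM of the 10 genes in every library (points), with the group mean and SD beside them (bars; n = 4 PBS, 3 sham sEV, 3 SNI sEV), on linear axes that start at 0. The sham-sEV libraries lie above all others for Ly96, Myd88, Tirap, Ticam1, Ticam2, Irak2 and Irak3 and below all others for Irak4, while Cd14 is level at 2529.5 to 2775 TPM.

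The first question was how the cells differed after vesicles from sham-operated animals. Of the 10 genes, 7 rose (Irak3, Irak2, Ticam2, Ly96, Myd88, Tirap and Ticam1), 2 fell (Irak4 and Irak1), and Cd14 did not pass the test. The test was limma on log2(TPM + 1) and p-values were adjusted over all 14806 tested genes by Benjamini-Hochberg. At an adjusted p under 0.05 it called 68.9% of all tested genes in this comparison, 16.5% higher and 52.5% lower. The groups did not overlap for 8 of the 10 genes (7 higher, 1 lower), against 66.5% of all tested genes (16.7% higher, 49.8% lower). The median log2 fold change was 0.83 over the 10 genes and -0.25 over all genes tested. That shift of all genes became 0.00 under median-of-ratios scaling, which sets the median ratio between libraries to 1. The 7 rises and the fall of Irak4 held under that scaling and under quantile normalization, but the fall of Irak1 did not.

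Cd14, the lipopolysaccharide-binding co-receptor, was at 2624.5, 2581, 2529.5 and 2666 TPM in PBS, 2620, 2651 and 2670 TPM in sham sEV and 2775, 2553 and 2649 TPM in SNI sEV. The 3 groups overlapped throughout. The log2 fold change in sham sEV was 0.03 ± 0.04 (SE; 95% interval -0.07 to 0.12; limma adjusted p = 0.62), so on the deposited scale a change beyond 1.09-fold upward lies outside the interval. Cd14 ranked 30 of all genes in sham sEV and 31 in SNI sEV. Its call depended on the scaling: the log2 fold change was 0.31 under median-of-ratios scaling (limma adjusted p = 9.9e-04) and -0.04 under quantile normalization (adjusted p = 0.55).

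Ly96, whose product MD-2 holds the lipid part of lipopolysaccharide beside Tlr4, was at 34.4, 62.3, 59.7 and 37.3 TPM in PBS and at 109.7, 109.7 and 125.8 TPM in sham sEV. PBS replicates 1 and 4 were low and replicates 2 and 3 high, yet every sham-sEV library lay above all 4. The rise was 2.42-fold on the scale of TPM + 1, a log2 fold change of 1.28 ± 0.19 (SE, limma adjusted p = 9.1e-05). Without PBS replicate 1 it was 1.13. Tlr4, the receptor that both co-receptors serve and which was chosen after its values were seen, went the other way, from 28.0 ± 5.70 TPM in PBS to 17.9 ± 0.917 TPM in sham sEV (limma adjusted p = 0.0028). The ratio of Ly96 to Tlr4 within a library, in deposited TPM and so independent of a single scaling factor per library, was 1.29 to 1.99 with PBS, 6.25 to 6.64 with sham sEV and 1.89 to 1.91 with SNI sEV.

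All 4 TIR adaptors rose in the sham-sEV cultures. Myd88, the adaptor of most Toll-like receptors and of the interleukin-1 receptor family, was at 87.7, 81.7, 79.7 and 93.5 TPM in PBS and 162, 159.9 and 153 TPM in sham sEV. The groups were far apart, and the change was 1.84-fold (log2 fold change 0.88 ± 0.06 SE, limma adjusted p = 1.6e-07). Ticam2, the bridge between Tlr4 and Ticam1, showed the largest change of the adaptors, from 17.5, 22.9, 21.9 and 22.3 TPM to 50.4, 55.4 and 52.2 TPM. This was 2.43-fold (1.28 ± 0.09 SE, limma adjusted p = 1.1e-07). Tirap, which brings Myd88 to the membrane, spanned 8.61 to 12.1 TPM in PBS and 18.1 to 21.3 TPM in sham sEV, a rise of 1.71-fold (limma adjusted p = 6.2e-05). Ticam1, the adaptor of Tlr3 and of internalised Tlr4, spanned 32.3 to 36.7 and 48.3 to 51.0 TPM, a rise of 1.40-fold (limma adjusted p = 1.3e-05).

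The 4 adaptors together went from 153 ± 8.22 TPM in PBS (SD, n = 4) to 280.1 ± 7.12 TPM in sham sEV (SD, n = 3). Myd88 made up 56.0% ± 3.05 of that sum in PBS and 56.6% ± 0.326 in sham sEV. The share of Ticam2 went from 13.8% ± 1.37 to 18.8% ± 0.985 and that of Ticam1 from 22.9% ± 0.785 to 17.6% ± 0.369, so that in the sham-sEV libraries Ticam2 was about level with Ticam1, which it bridges to Tlr4.

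The IRAK kinases went in both directions, and Irak3 changed by far the most. Irak3 was at 8.55, 9.99, 10.2 and 10.7 TPM in PBS and at 214, 223 and 204.9 TPM in sham sEV. No sham-sEV library came near the PBS range, and the rise was 19.8-fold on the scale of TPM + 1, or 4.31 ± 0.07 as log2 (SE, limma adjusted p = 4.2e-12). Only 48 of the 14806 tested genes had a larger log2 fold change in this comparison. Irak2, a kinase-like partner of Irak4 that sustains the response, was at 53.5, 57.5, 57.6 and 61.2 TPM in PBS and at 159.9, 156 and 143 TPM in sham sEV. It rose 2.63-fold (1.39 ± 0.06 SE, limma adjusted p = 1.8e-09).

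Irak4, the kinase at the start of the cascade, fell from 16.8, 19.0, 20.7 and 19.8 TPM to 13.7, 12.7 and 13.3 TPM. The groups did not overlap, and the log2 fold change was -0.49 ± 0.07 (SE, limma adjusted p = 7.7e-05). Against the median of all genes the fall was smaller, at -0.22 under median-of-ratios scaling (adjusted p = 0.0042) and -0.24 under quantile normalization (adjusted p = 0.0021). Irak1, the kinase that Irak4 phosphorylates, spanned 56.1 to 74.1 TPM in PBS and 54.5 to 57.5 TPM in sham sEV. These ranges overlapped at PBS replicate 1. Its log2 fold change of -0.25 ± 0.08 (SE, limma adjusted p = 0.015) equalled the median of all genes and was 0.03 under median-of-ratios scaling (adjusted p = 0.67). Under quantile normalization it was -0.16 (adjusted p = 0.058), and in the replicate block without the SNI-sEV libraries -0.20 (adjusted p = 0.076).

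As a family the IRAK transcripts summed to 153 ± 13.0 TPM in PBS (SD, n = 4), 435 ± 17.8 TPM in sham sEV and 155 ± 1.97 TPM in SNI sEV (SD, n = 3 each). Irak3 made up 6.44% ± 0.0843 of the sum in PBS and 49.1% ± 0.716 in sham sEV. Irak1 went from 43.5% ± 1.40 to 12.8% ± 0.349 and Irak4 from 12.5% ± 0.560 to 3.05% ± 0.188, while Irak2 was at 37.6% ± 1.37 and 35.0% ± 0.975. The ratio of Irak3 to Irak4 ranged from 0.494 to 0.540 with PBS, from 15.4 to 17.5 with sham sEV and from 0.580 to 0.597 with SNI sEV. These shares and ratios are taken within a library on the deposited TPM, so a single scaling factor per library does not move them, while quantile normalization can.

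**Figure D2:**
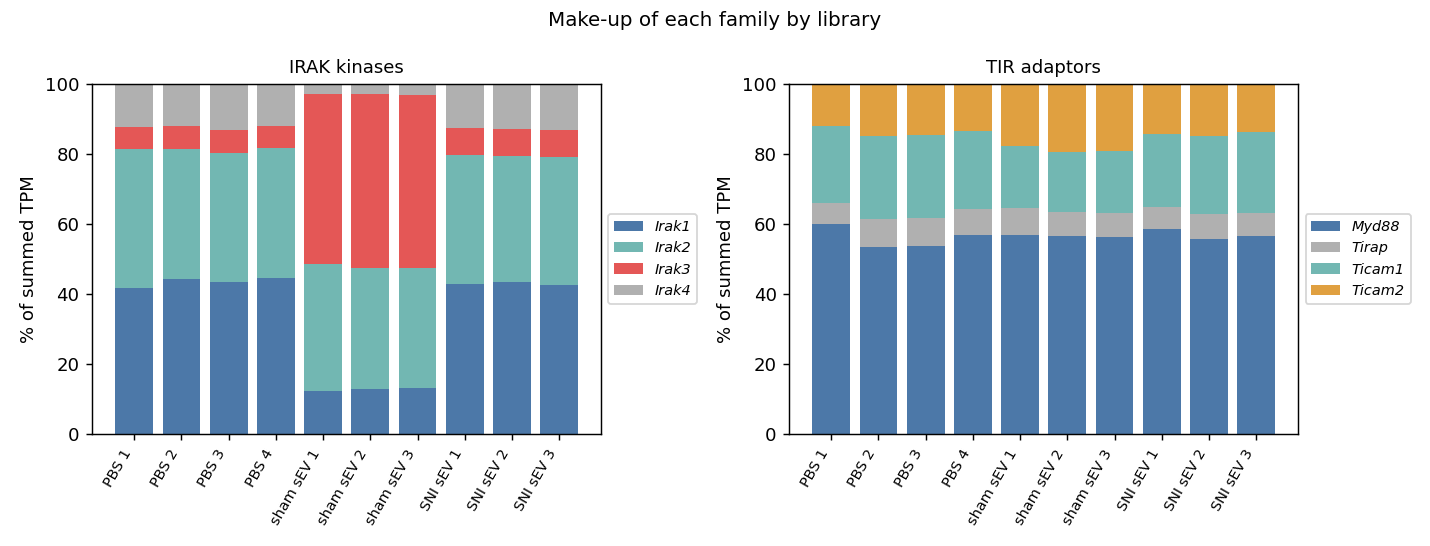
Share of each gene in the summed TPM of its family, in percent, for each library (1 bar per library; IRAK kinases on the left, TIR adaptors on the right). Irak3 fills 49.1% of the IRAK sum on average in sham sEV against 6.44% in PBS and 7.66% in SNI sEV, while the group means of Myd88 are 56.0% to 56.9% of the adaptor sum, with single libraries from 53.5% to 59.98%.

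Promoter sequence from RefSeq (GRCm38.p6) was searched for 3 motifs in 7 of the 10 genes. Each window holds 250 bases before to 50 bases after a transcript start, and 10 windows belong to these 7 genes. Cd14, Ticam2 and Ly96 were left out of this description, so it says nothing about their promoters. The motifs, on both strands, were the NF-kappaB consensus, the interferon-stimulated response element GAAANNGAAA and the STAT element TTCNNNGAA. Of all 32851 windows searched, 8.46%, 3.44% and 8.30% held them. The 250 bases before the start are shown for Myd88, the only one of the 7 with an interferon element, for Irak3, the gene with the largest change, and for Irak1, the only one with an NF-kappaB match. Capitals mark the matches. Each runs 5′ to 3′ on the minus strand, at chr9:119340019-119340268 for Myd88, chr10:120202131-120202380 for Irak3 and chrX:74023922-74024171 for Irak1.
Myd88: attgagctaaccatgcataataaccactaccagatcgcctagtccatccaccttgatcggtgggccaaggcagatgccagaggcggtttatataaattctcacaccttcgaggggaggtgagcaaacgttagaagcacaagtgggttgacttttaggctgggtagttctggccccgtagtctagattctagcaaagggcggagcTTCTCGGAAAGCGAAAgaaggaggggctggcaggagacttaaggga
Irak3: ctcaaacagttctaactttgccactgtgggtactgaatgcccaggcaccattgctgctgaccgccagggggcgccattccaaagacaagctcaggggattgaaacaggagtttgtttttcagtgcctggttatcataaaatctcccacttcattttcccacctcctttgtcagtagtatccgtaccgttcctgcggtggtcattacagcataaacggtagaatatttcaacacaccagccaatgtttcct
Irak1: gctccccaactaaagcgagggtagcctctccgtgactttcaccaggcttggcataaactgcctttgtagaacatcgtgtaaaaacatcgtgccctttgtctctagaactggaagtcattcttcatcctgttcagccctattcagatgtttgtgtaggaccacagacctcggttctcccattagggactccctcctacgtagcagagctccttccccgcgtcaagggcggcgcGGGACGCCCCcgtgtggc
In the Myd88 window the interferon element begins 40 bases before the start and overlaps a STAT element that begins 46 bases before it. The Irak1 match begins 18 bases before the start and is read on both strands; from a second listed start it is 21 bases. The windows of Irak3 (2 starts), Irak2, Tirap (2 starts), Ticam1 and Irak4 held none of the 3. A match is a description of these letters only.

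On GRCm38, the build named in the submitters' processing notes (mm10), GENCODE places Irak3 at chromosome 10, 120141648 to 120202130, minus strand, Irak2 at chromosome 6, 113638467 to 113695026, plus strand, and Myd88 at chromosome 9, 119335934 to 119341411, minus strand. Its annotation has Ticam2 share 838 of 5792 exonic bases with Tmed7 on the same strand, so reads there can belong to either gene. Tmed7 was at 71.7 ± 12.4 TPM in PBS, 69.0 ± 0.676 TPM in sham sEV and 76.0 ± 5.64 TPM in SNI sEV. Exons also overlap genes on the opposite strand, Irak3 by 192 bases with Tmbim4, Irak4 by 395 with Twf1, Myd88 by 290 with Acaa1a, Irak2 by 196 with Gm43963, and Tirap by 446 with Gm39318 and 39 with Srpr. Irak3 shares a further 28 with Gm47009. The library kit keeps strand, but whether the counting used it is not given in the sources used here. From PBS to sham sEV, Acaa1a went from 135 ± 12.7 to 216 ± 4.62 TPM, Srpr from 71.4 ± 4.13 to 95.2 ± 3.20 TPM, Tmbim4 from 155 ± 15.3 to 203 ± 10.1 TPM and Twf1 from 72.7 ± 4.81 to 109.8 ± 0.927 TPM. The part of these genes in the values of Myd88, Tirap, Irak3 and Irak4 was not tested.

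SNI sEVs against PBS puts that question for animals with spared nerve injury. None of the 10 genes passed the test with limma, where 5.34% of all tested genes were called (2.97% higher, 2.36% lower). At an unadjusted p under 0.05 there were 2 of the 10, Irak3 and Ly96, and 2742 of all 14806 tested genes. The median log2 fold change of the 10 was 0.07, against -0.01 for all genes tested. Of the 10 genes, 1 (Irak3) had groups that did not overlap, against 17.3% of all tested genes (6.29% higher, 11.1% lower). It was at 11.6 to 12.1 TPM in the 3 SNI-sEV libraries, each above the highest PBS library at 10.7 TPM. Its log2 fold change was 0.25 ± 0.07 (SE; 95% interval 0.10 to 0.41; limma adjusted p = 0.070), a value 1.19-fold that of PBS. It passed in 4 of 19 alternatives, under median-of-ratios scaling and quantile normalization (adjusted p = 0.016 for both) and without PBS replicate 1 or 4 (adjusted p = 0.036 and 0.046), and over all 19 the adjusted p ran from 0.016 to 0.22.

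For the other genes the intervals bound what these libraries could have missed. Ly96 was at 57.7, 68.7 and 62.2 TPM in SNI sEV, within or just above the PBS range, with a log2 fold change of 0.42 ± 0.19 (SE; 95% interval 0.00 to 0.83; limma adjusted p = 0.26). The interval for Myd88, at 93.3 ± 4.63 TPM in SNI sEV, was -0.01 to 0.26 (adjusted p = 0.32). That for Ticam2, at 23.3 ± 0.955 TPM, was -0.05 to 0.33, and that for Tirap, at 10.8 ± 0.394 TPM, -0.27 to 0.20. The intervals of the 5 remaining genes, Cd14, Ticam1, Irak1, Irak2 and Irak4, lay between -0.17 and 0.23.

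**Figure D3:**
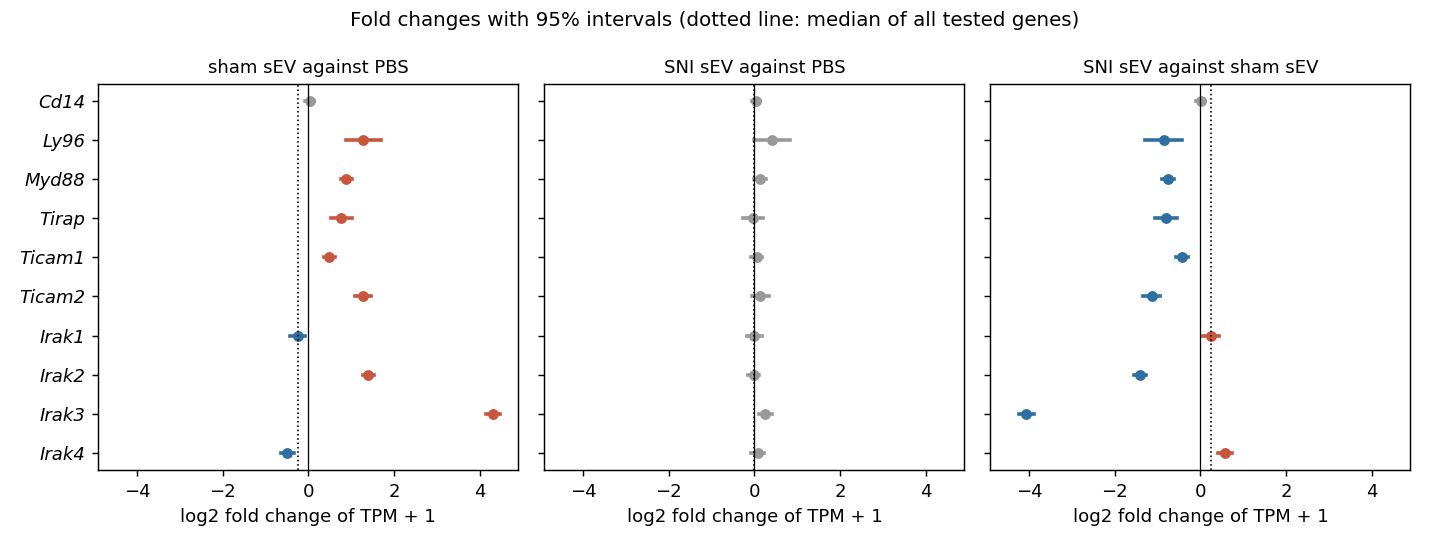
Log2 fold change of TPM + 1 for each gene in the 3 comparisons, with 95% intervals of the limma fit (red: called higher, blue: called lower, grey: not called at an adjusted p under 0.05). The dotted lines mark the median of all tested genes, at -0.25, -0.01 and 0.24 from left to right, and Irak3 reaches 4.31 in sham sEV against PBS but 0.25 in SNI sEV against PBS.

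SNI sEVs against sham sEVs compares the 2 kinds of vesicle directly. The 7 genes that had risen in sham sEV were lower in SNI sEV, Irak4 and Irak1 were higher, and Cd14 did not pass the test. Among all tested genes 65.6% were called with limma, 49.9% higher and 15.7% lower. The groups did not overlap for 9 of the 10 genes (2 higher, 7 lower), against 78.1% of all tested genes (58.8% higher, 19.4% lower). This comparison shares the sham-sEV libraries with the one against PBS, so its values are not independent of those above. Irak3 was 16.7-fold lower in SNI sEV (log2 fold change -4.06 ± 0.08 SE, limma adjusted p = 2.2e-11), Irak2 2.66-fold lower (-1.41 ± 0.06 SE, adjusted p = 4.3e-09) and Ticam2 2.20-fold lower (-1.14 ± 0.09 SE, adjusted p = 7.4e-07). Ly96 (-0.86 ± 0.20 SE, adjusted p = 0.0028), Tirap (-0.81), Myd88 (-0.76) and Ticam1 (-0.43) were lower by less.

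Irak4 was at 20.0, 20.0 and 20.3 TPM in SNI sEV, above every sham-sEV library, with a log2 fold change of 0.57 ± 0.08 (SE, limma adjusted p = 5.0e-05). Irak1 was at 67.4, 66.6 and 65.8 TPM, also above every sham-sEV library (0.25 ± 0.08 SE, limma adjusted p = 0.020), beside a median of 0.24 over all genes. Its call ended under median-of-ratios scaling (-0.02, adjusted p = 0.83) and quantile normalization (0.17, adjusted p = 0.057). It also ended without sham-sEV replicate 1 or 3 or SNI-sEV replicate 1 (adjusted p = 0.056, 0.059 and 0.053), and passed in 14 of 19 alternatives in all. Cd14 had a log2 fold change of 0.01 ± 0.05 (SE; 95% interval -0.10 to 0.11), and of -0.27 under median-of-ratios scaling (adjusted p = 0.0042).

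**Figure D4:**
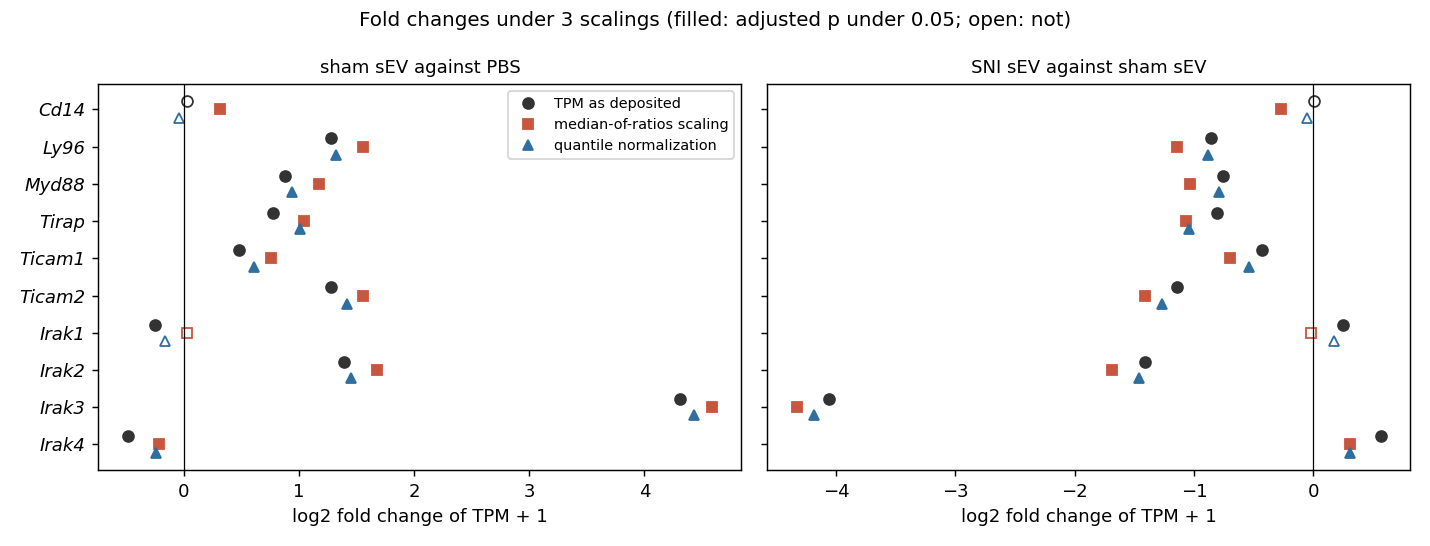
Log2 fold change of TPM + 1 of each gene on the deposited TPM (circles), under median-of-ratios scaling (squares) and under quantile normalization (triangles), with filled symbols for an adjusted p under 0.05. In both comparisons 7 genes and Irak4 keep their direction and call under all 3 scalings, while Irak1 and Cd14 do not keep theirs.

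The authors' deposited table of differential genes lists 2375 genes, each with at least 1 fold change of 2.00 or more among the 3 comparisons. It holds 4 of the 10 genes. Beside these counts stand 32074 genes measured and 14806 genes tested here. The authors' deposited table gives Irak3 a fold change of 19.8 in sham sEV against PBS with a false discovery rate of 7.0e-06, Irak2 2.63 (6.2e-05), Ticam2 2.43 (4.5e-04) and Ly96 2.42 (0.011). These fold changes equal those of TPM + 1 given above and come from the same libraries, so they are not independent of them. For SNI sEV against PBS the authors' deposited table gives the same genes false discovery rates of 0.25, 0.90, 0.65 and 0.60.

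The surrounding pathway was read from lists chosen with earlier results known. In sham sEV against PBS, 16.5% of all tested genes were called higher and 52.5% lower, and the list counts stand beside those shares. In that comparison 6 of 9 tested Toll-like receptors rose and 2 fell, with a median log2 fold change of 0.58 against -0.25 for all genes. Tlr1 and Tlr6, which pair with Tlr2, rose from 22.7 ± 3.51 to 204 ± 6.98 TPM and from 13.2 ± 1.38 to 31.0 ± 0.588 TPM. Tlr13, a sensor of bacterial ribosomal RNA, fell from 219.8 ± 43.9 to 71.1 ± 2.20 TPM (limma adjusted p = 1.3e-06). Of 8 partners in ligand binding and receptor traffic, 5 rose and 2 fell. Unc93b1, which escorts the endosomal receptors, rose from 500.2 ± 34.4 to 790.5 ± 13.4 TPM (limma adjusted p = 1.5e-06), Cnpy3, a chaperone of the receptors, rose 1.47-fold, and Hmgb1, which can act as a ligand when released, fell 1.46-fold.

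Of 15 kinases and ubiquitin enzymes downstream, 4 rose and 7 fell in sham sEV against PBS, the falls being near the share of all genes. Under both other scalings 6 rose and 4 fell. Rescaled counts stand beside other shares of the 14806 tested genes. Of these, 4728 were higher and 4579 lower under median-of-ratios scaling, and 4307 and 4883 under quantile normalization. Peli1, a ubiquitin ligase that acts on the IRAK kinases, rose from 22.5 ± 1.88 to 82.2 ± 3.45 TPM (limma adjusted p = 6.5e-10), while its relative Peli2 fell from 5.57 ± 0.909 to 1.39 ± 0.0791 TPM. The kinase Map3k8 rose 2.83-fold. In the interferon arm, 3 of 6 rose and 2 fell, 4 and 0 with median-of-ratios scaling, and 4 and 1 with quantile normalization. Irf7, the factor that amplifies interferon production, rose 44.8-fold, its kinase Ikbke 3.79-fold and Tbk1 1.30-fold. Of 9 tested inhibitors, 6 rose and 2 fell, with a median log2 fold change of 1.37. Zc3h12a, an RNase that degrades cytokine transcripts, rose from 15.0 ± 1.02 to 93.3 ± 5.58 TPM (limma adjusted p = 5.7e-11) and Tnip1, a partner of the deubiquitinase Tnfaip3, 3.15-fold. Il1rl1, which sequesters adaptors in some cells, fell from 5.06 ± 0.718 to 0.0977 TPM.

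In SNI sEV against PBS the calls in the same lists were 2 of 9 Toll-like receptors, 1 of 8 partners, 1 of 15 downstream genes, 2 of 6 genes of the interferon arm and 2 of 9 inhibitors, all higher, where 2.97% of all tested genes were called higher. They were Tlr9 (1.54-fold, limma adjusted p = 0.0096), Tlr3 (1.44-fold), Unc93b1 (1.22-fold), Map3k8 (1.33-fold), Irf7 (5.26-fold), Ikbke (1.52-fold), Tnip3 (1.31-fold) and Zc3h12a (1.21-fold). Under median-of-ratios scaling Tlr1 was called higher as well (limma adjusted p = 0.033). Under quantile normalization Tlr1 and Tlr8 were (limma adjusted p = 0.025 and 0.038). The shares of all tested genes under those 2 scalings are not given here for this comparison, so these added calls cannot be set beside them. In SNI sEV against sham sEV, 3 Toll-like receptors were higher and 3 lower on the deposited scale, 2 and 5 under median-of-ratios scaling and 3 and 5 under quantile normalization. Of the inhibitors 2 were higher and 6 lower under all 3. Among all tested genes 49.9% were called higher and 15.7% lower in that comparison on the deposited scale. The counts over all genes under the other 2 scalings are given further below. Tlr1 (6.84-fold), Peli1 (3.19-fold), Irf7 (8.51-fold), Zc3h12a (4.88-fold) and Tnip1 (3.01-fold) were lower in SNI sEV, while Tlr13 (3.38-fold) and Peli2 (2.65-fold) were higher.

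Profiles most like those of the 3 genes that varied most over the groups (largest moderated F: Irak3, Irak2 and Ticam2) were sought among 11899 tested genes. Likeness was the root mean square distance between log2(TPM + 1) values over the 10 libraries, each gene centred on its own mean. The nearest to Irak3 were Mir155hg, the host gene of microRNA 155 (distance 0.111), Serpinb2 (0.114) and the phosphatase Dusp2 (0.135). In PBS, sham sEV and SNI sEV Mir155hg was at 0.497, 30.8 and 0.607 TPM and Serpinb2 at 0.0226, 18.2 and 0.0582 TPM. Dusp2 was at 0.931, 35.4 and 1.59 TPM. Mir155hg and Serpinb2 averaged under 1 TPM outside sham sEV, so they passed the filter only through the sham-sEV libraries. The distances of all 3 depend on the 1 TPM added before the log. Those nearest to Irak2 were Pik3r6 (0.0606), the integrin Itga5 (0.0614) and the kinesin Kif3c (0.0633). Those nearest to Ticam2 were the GTPase Rhoq (0.0469), Tlr6 (0.0607) and Inpp5b (0.0655). Among the 10 genes themselves, the closest pairs were Irak2 with Ticam2 (0.135) and Irak1 with Irak4 (0.144).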

How the data were processed

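The 10 members and the pathway and marker lists were chosen with earlier results of these data known. The submitters' processing notes name mm10 and the tools featureCounts 2.0.2, Subread, BWA and bcl2fastq without their roles. The authors deposited TPM, scaled to 1000000 per library, so depth cannot be read from them and no test on counts was run. The authors' deposited table of differential genes holds their signed fold change (a score below -1 where the first group is lower) and a false discovery rate, read as an adjusted p-value, and its test is not stated.

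The 14806 genes that averaged 1 TPM or more were fitted as log2(TPM + 1) in limma 3.58.1 (R 4.3.3), all 3 groups sharing one estimate of spread (7 residual degrees of freedom, eBayes with a trend), two-sided, with Benjamini-Hochberg adjustment and a threshold of 0.05. Fold changes on the scale of TPM + 1 understate those of low genes. Errors are SD between libraries, or SE of the fit where stated. The fit was tested on simulated data. Genes named are all members, up to 3 called genes per list and comparison by smallest p, and the 3 nearest profiles of 3 members (predicted genes left out). Tlr4, Csf1r, P2ry12, the neutrophil and monocyte markers under 0.1 TPM and the genes that overlap members were named outside that rule, after their values were seen. Promoter coordinates come from RefSeq and gene coordinates from GENCODE vM21. No 2 library columns were identical.

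Replicate numbers were checked for pairing by correlating deviations from the group means across genes. The correlation was 0.154 to 0.363 between PBS and SNI-sEV libraries of one number. The range for different-numbered libraries, -0.351 to 0.220, overlapped with it. In the other comparisons libraries of one number reached at most 0.0772. The labels name no pairs, and these values do not establish any. The main fit used no pairing in any comparison, and replicate numbers entered only the replicate-block alternatives. Alternatives were pseudocounts of 0.1 and 0.5 TPM, no filter, a filter at 5 TPM, quantile normalization, median-of-ratios scaling, only the 2 groups compared, the replicate block with all libraries or with 2 groups, and each library left out.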

Additional observations from a re-analysis of the deposited data

Results flagged for a closer look

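Tirap in PBS replicate 1 was at 8.61 TPM, while the other 3 PBS libraries held 11.9 to 12.1 TPM. The gap to the nearest library was 0.952 of the range of the 4, above the 95% critical value of Dixon for that number of libraries. By chance about 1 in 20 groups is marked in this way, and 10 PBS groups were examined. Without PBS replicate 1 the log2 fold change of Tirap in sham sEV against PBS was 0.66 (limma adjusted p = 3.0e-06) instead of 0.77.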

How the results depend on the processing

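In sham sEV against PBS, the 7 higher genes and the fall of Irak4 passed in all 19 alternatives. Under median-of-ratios scaling, quantile normalization and the replicate block with the 2 groups alone, 1 member was lower instead of 2, and under median-of-ratios scaling 8 were higher, with Cd14. Cd14 reversed to -0.04 under quantile normalization and Irak1 to 0.03 under median-of-ratios scaling. Over all genes, 4728 were higher and 4579 lower under median-of-ratios scaling and 4307 and 4883 under quantile normalization, against 2437 and 7768. Leaving out a library gave 7 and 2 members throughout, 2151 to 2508 genes higher and 7144 to 8668 lower.

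In SNI sEV against PBS, 1 member (Irak3) was higher under either scaling, and 0 to 1 with a library left out (1 without PBS replicate 1 or 4). With a library left out, Tirap ran from -0.14 to 0.00 and Irak1 from -0.07 to 0.06. Values near 0 reversed: Cd14 to -0.08 under quantile normalization, Tirap to 0.00 and Irak2 to 0.01 under both replicate blocks and without PBS replicate 4, and Irak1 to -0.07 without PBS replicate 1 and 0.00 without SNI-sEV replicate 1. Over all genes 440 were higher and 350 lower. The lower count was 155 with only the 2 groups and 127 with the replicate block on those 2 groups, which treats libraries of one number as pairs. With a library left out it was 92 (without SNI-sEV replicate 1) to 653 (without PBS replicate 1), and the higher count 278 to 502.

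In SNI sEV against sham sEV, 1 member was higher instead of 2 under either scaling and 1 to 2 with a library left out, and 7 were lower except under median-of-ratios scaling, where Cd14 made 8. Cd14 reversed to -0.27 under median-of-ratios scaling, -0.05 under quantile normalization, 0.00 without sham-sEV replicate 1 and -0.03 without SNI-sEV replicate 1, and Irak1 to -0.02 under median-of-ratios scaling. Over all genes 4250 were higher and 4466 lower under median-of-ratios scaling and 4373 and 4130 under quantile normalization, against 7388 and 2319. With a library left out they were 6610 to 8267 and 1999 to 2642. The replicate block with all libraries changed no member's call. The cause of these changes was not tested beyond what each setting alters.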

Other observations

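Receptors of the interleukin-1 family use Myd88 and the IRAK kinases like the Toll-like receptors do. A list of 5 of them was low in these cultures. It summed to 7.87 to 11.99 TPM in the PBS libraries, 6.09 to 6.63 TPM in sham sEV and 8.37 to 9.40 TPM in SNI sEV. Il1rl1 was counted with the inhibitors above and is not in that sum or in the counts that follow. Of 3 tested, 2 were lower in sham sEV than in PBS and 0 higher, or 2 and 1 under the other scalings. Among all tested genes 52.5% were called lower and 16.5% higher on the deposited scale. The counts over all genes under the other scalings are given above. Il18rap, the accessory chain of the interleukin-18 receptor, fell from 3.10 ± 0.620 TPM (SD, n = 4) to 0.148 ± 0.0651 TPM (SD, n = 3; limma adjusted p = 7.5e-08) and was at 1.97 ± 0.119 TPM in SNI sEV (limma adjusted p = 0.048 against PBS). Il1rl2, a receptor of interleukin-36, fell 1.70-fold in sham sEV.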
